A study of Mus musculus with 12 samples.

Results

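Kv3 and Kv4 potassium channel genes and the genes of their calcium-binding partners were followed in hippocampal poly(A) RNA-seq. The set was chosen by gene symbol and holds 9 genes, namely the Kv3 subunits *Kcnc1*, *Kcnc2* and *Kcnc4*, the Kv4 subunits *Kcnd2* and *Kcnd3*, and the K+ channel-interacting proteins (KChIPs) *Kcnip1*, *Kcnip2*, *Kcnip3* and *Kcnip4*. All of them were found among the 37991 Ensembl genes counted and among the 16399 genes that had enough reads to be tested. The libraries came from 12 C57BL/6N mice, 6 labelled wild type (*Gadd45a*-WT) and 6 labelled *Gadd45a*-/- (*Gadd45a*-KO), siblings from crosses of heterozygous parents and 6 to 7 months old by the labels. Every mouse had been trained in passive avoidance (PA), in which entry into a dark chamber is followed by a foot shock, and hippocampi were taken 1 h later, and no untrained group was analysed here. In the knockout line, a neomycin cassette replaces the exons of *Gadd45a* before the last one. The deletion is constitutive and not limited to neurons or to the hippocampus. The labels give 1 library for each of the 12 mice.

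Kv3 channels open only at strongly depolarized voltages and close very fast. They let fast-spiking interneurons repolarize quickly, and Kv3 subunits also sit in presynaptic terminals. Kv4 channels carry the A-type current of neuronal cell bodies and dendrites, a transient current that limits how far action potentials travel back into the dendrite and thereby influences synaptic plasticity. KChIPs are EF-hand calcium sensors that bind Kv4 subunits, bring them to the surface and shape their inactivation.

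Between 44594261 and 55540601 reads per library fell on genes. Values are given as CPM, read counts scaled to a common library size after TMM normalization, which corrects for library composition. The reads on *Gadd45a* itself went against the labels, at 20.5 to 23.1 CPM under the KO label and 2.19 to 3.43 CPM under the WT label. The last exon remains in the knockout line, and its reads were not counted by exon, so that all libraries are named by their label and every direction is read from it. Markers of dentate granule cells and of CA1 pyramidal cells were present in every library, except the CA1 marker *Pou3f1*, which had 0 to 6 reads. *Gadd45a*-KO replicates 2 and 3 stood apart in 8 genes that mark the thalamus, a region next to the hippocampus. Summed over these markers, they had 337 and 518 CPM, whereas the other 10 libraries had between 110.4 and 152 CPM. Of the 8 thalamic markers 7 were tested and 0 passed a false discovery rate (FDR) of 1%, with a median log2 fold change of 0.91. *Gbx2*, a defining thalamic gene, was at or below 0.0541 CPM under the WT label and between 0 and 0.829 CPM under the KO label. Differences between the labels are therefore also given without these 2 libraries where that turns their direction or moves them by over 1.5 times, and for *Kcnd2*. In whole tissue, fewer cells of a type and less RNA per cell cannot be told apart.

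At 1% FDR, 0 of the 9 genes were lower under the KO label and 0 higher, where 2.62% of all tested genes were lower, 0.0244% higher and 2.65% called in either direction (quasi-likelihood test of edgeR, p-values adjusted over all tested genes by the Benjamini-Hochberg method). At 5% FDR it was again 0 of the 9, beside 4.55% of tested genes. DESeq2 called 0 of the 9 at 1% FDR as well, beside 3.88% of the genes it tested. In 0 of the 9 did all libraries of the KO label lie below or above all those of the WT label, as 3.12% and 0.183% of tested genes did (3.31% together). A single gene, *Kcnd2*, had an unadjusted p under 0.05 in the edgeR fit, as did 13.7% of tested genes. Log2 fold changes of the KO label over the WT label ran from -0.14 for *Kcnd2* to 0.11 for *Kcnc2*, 4 below and 5 above 0, with a median of 0.01 beside 0.00 over all tested genes. For 6 of the 9 genes, the 95% interval of the log2 fold change lay within 0.2 of 0. Among genes called lower at 1% FDR the median log2 fold change was -0.34, and the intervals of 8 members excluded a fall of that size, *Kcnc4* being the exception. That median comes from genes picked by the same test, which favours large falls. Smaller falls are not excluded by this comparison, and the interval of *Kcnd2* reached -0.23.

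**Figure D1:**
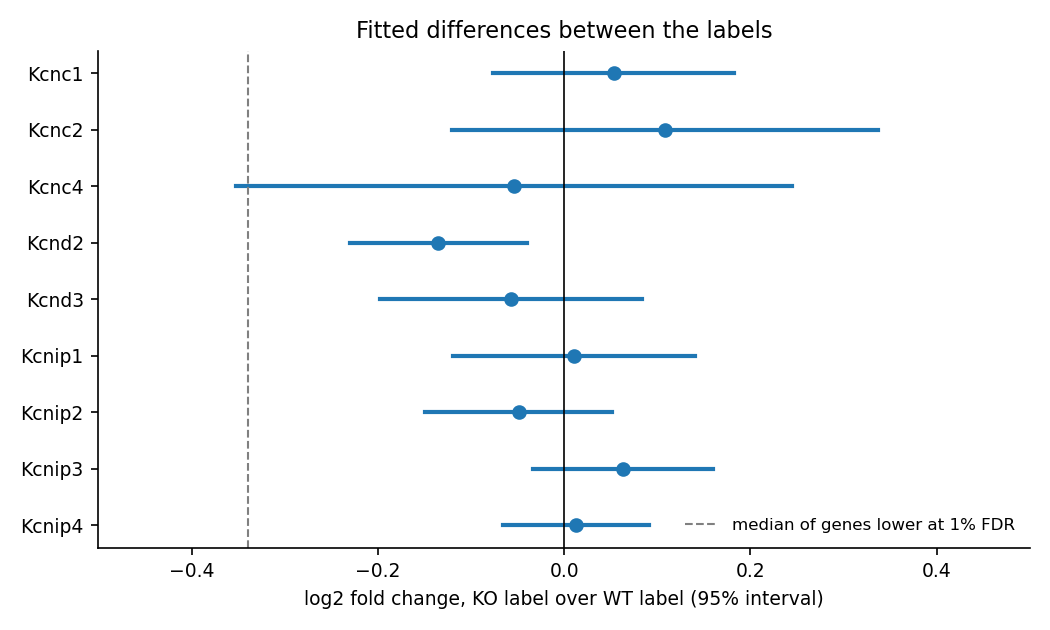
Fitted log2 fold change of the KO label over the WT label for each gene (points) with its 95% interval (bars), and the median of genes lower at 1% FDR (dashed line, -0.34). The interval of *Kcnd2* lies below 0 and that of *Kcnc4* is the widest and reaches the dashed line.

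The 9 genes also span a wide range of levels. Levels between genes were compared as CPM per kb of annotated exon, given as mean ± SD over all 12 libraries. *Kcnip2* stood highest at 71.5 ± 4.16 CPM per kb and *Kcnd2* next among the 9 at 36.1 ± 2.55, with no overlap between them in any library. *Kcnip4* followed at 25.9 ± 1.02, then *Kcnc1* at 22.4 ± 1.76 and *Kcnip3* at 21.4 ± 1.22. *Kcnc1* was above *Kcnip3* in 8 of 12 libraries and *Kcnip3* above *Kcnc2*, at 19.996 ± 3.08, also in 8, so that these 3 neighbours did not differ beyond their spread. *Kcnc4* had 14.5 ± 2.64 CPM per kb and *Kcnd3* 10.9 ± 0.929, with *Kcnc4* higher in 11 of 12 libraries. *Kcnip1* was lowest at 2.26 ± 0.157. *Kcnd1*, a Kv4 gene outside the set, had 2.53 ± 0.128 CPM per kb.

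**Figure D2:**
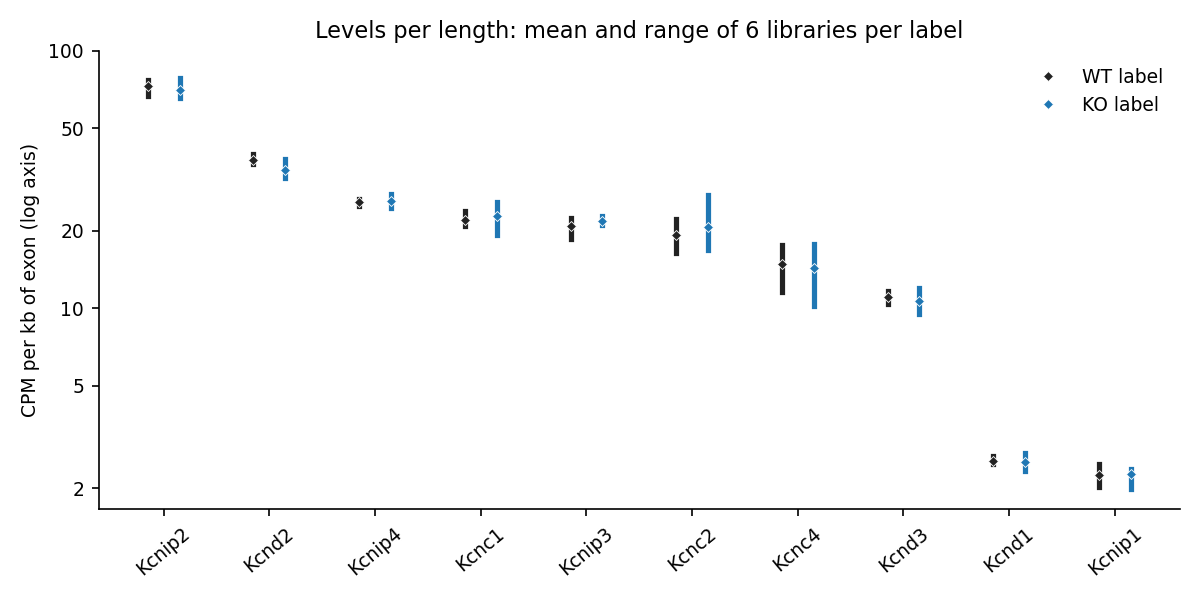
Mean level (diamonds) and range over 6 libraries (bars) of the 9 genes and of *Kcnd1*, in CPM per kb of exon on a log axis, by label. *Kcnip2* leads at 71.5 and *Kcnip1* is lowest at 2.26 CPM per kb, and bars of both labels overlap for every gene.

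*Kcnc1* encodes Kv3.1, a subunit of fast-spiking interneurons. The gene spans 53651867 to 53693745 on the plus strand of chromosome 7 (NCBIM37, as all positions here). Under the WT label *Kcnc1* had 189.6 CPM in the lowest library, 199 in the median and 218 in the highest, and under the KO label 176, 211 and 237. The KO-labelled libraries lay on both sides of those labelled WT. The means were 201 ± 11.1 and 208 ± 20.3 CPM (SD, n = 6 each), a log2 fold change of 0.05 (95% interval -0.08 to 0.18; adjusted p = 0.803 from edgeR). Without *Gadd45a*-KO replicates 2 and 3 it was -0.01 (adjusted p = 1.00 from edgeR).

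*Kcnc2* encodes Kv3.2, which interneurons of the hippocampus also use and which is prominent in thalamic projections. *Kcnc2* spans 111708179 to 111903360 on the plus strand of chromosome 10. The lowest, median and highest library had 101, 119 and 138 CPM under the WT label and 104, 123 and 171 CPM under the KO label. The highest value belonged to *Gadd45a*-KO replicate 3 and the next, 136 CPM among KO-labelled libraries, to replicate 2, the same libraries that stood highest in thalamic markers. With them the log2 fold change was 0.11 (95% interval -0.12 to 0.34; adjusted p = 0.760 from edgeR), and without them -0.04 (adjusted p = 1.00 from edgeR). *Gadd45a*-WT replicate 3 had 138 CPM of *Kcnc2* at 129 CPM of summed thalamic markers. Over the 10 libraries left, log2 CPM of *Kcnc2* and the log2 summed thalamic markers had Pearson's r = -0.260 (permutation p = 0.464). These libraries spanned only 110.4 to 152 CPM of the markers, so that the relation cannot show what thalamic tissue adds in *Gadd45a*-KO replicates 2 and 3. The part of thalamic tissue in the log2 fold change of 0.11 was not tested.

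*Kcnc4* encodes Kv3.4, a fast-inactivating Kv3 subunit found in mossy fibre terminals, the axon endings of dentate granule cells. *Kcnc4* spans 107241221 to 107261816 on the minus strand of chromosome 3. It was the least even of the 9 genes. Under the WT label it had 34.8, 46.7 and 53.0 CPM in the lowest, median and highest library, and under the KO label 30.6, 45.8 and 53.3 CPM. The labels overlapped almost fully (log2 fold change -0.05, 95% interval -0.35 to 0.24; adjusted p = 0.928 from edgeR). Within a label its log2 CPM had an SD of 0.29, a spread that 84.0% of tested genes did not reach, whereas the median gene had 0.12.

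The low libraries of *Kcnc4* were *Gadd45a*-WT replicates 3 and 5, at 34.8 and 38.0 CPM, and *Gadd45a*-KO replicates 3 and 4, at 32.7 and 30.6 CPM. These 4 libraries were also the lowest in 4 markers of dentate granule cells (*Prox1*, *C1ql2*, *Dsp* and *Tdo2*), with summed levels of 293, 290.0, 267 and 184 CPM against 332 to 423 CPM in the others. Over the 12 libraries, log2 CPM of *Kcnc4* correlated with the log2 summed markers (Pearson's r = 0.884, permutation p = 5.00e-05, adjusted p = 0.00450 over 90 relations of the 9 genes with 10 marker lists). Spearman's rho was 0.797 (permutation p = 0.00266), which did not pass over the same 90 relations (adjusted p = 0.239). Without the 2 libraries farthest from the median of the markers, r was 0.794. Within the WT label r was 0.911 (exact permutation p = 0.0167, n = 6) and within the KO label 0.902 (exact permutation p = 0.00972, n = 6). No other of the 90 relations had an adjusted p under 0.05 in either measure. The relations were added after seeing the data, and the dentate markers were named after their values were seen. Adjustment over the 90 relations does not cover that choice, and the values within a label come from the same 12 libraries. The lists covered interneurons, dentate granule cells, CA1 pyramidal cells, thalamus, striatum, choroid plexus, oligodendrocytes, astrocytes, microglia and endothelial cells. Between the labels 0 markers of any list passed 1% FDR, beside 2.65% of all tested genes. An unadjusted p under 0.05 from edgeR was found for 6 of 7 thalamic, 4 of 4 oligodendrocyte and 2 of 4 astrocyte markers tested. It was found for 1 of 8 interneuron and 1 of 6 choroid plexus markers and 0 in the other lists, beside 13.7% of tested genes. Median log2 fold changes were 0.45 for oligodendrocyte, 0.53 for choroid plexus, 0.20 for striatal, 0.13 for astrocyte, 0.12 for endothelial and 0.06 for microglial markers. All 4 dentate markers were below 0 with a median log2 fold change of -0.19, and their sums ran from 290.0 to 423 CPM under the WT label and from 184 to 384 CPM under the KO label. What part the amount of dentate tissue has in the spread of *Kcnc4* was not tested.

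**Figure D3:**
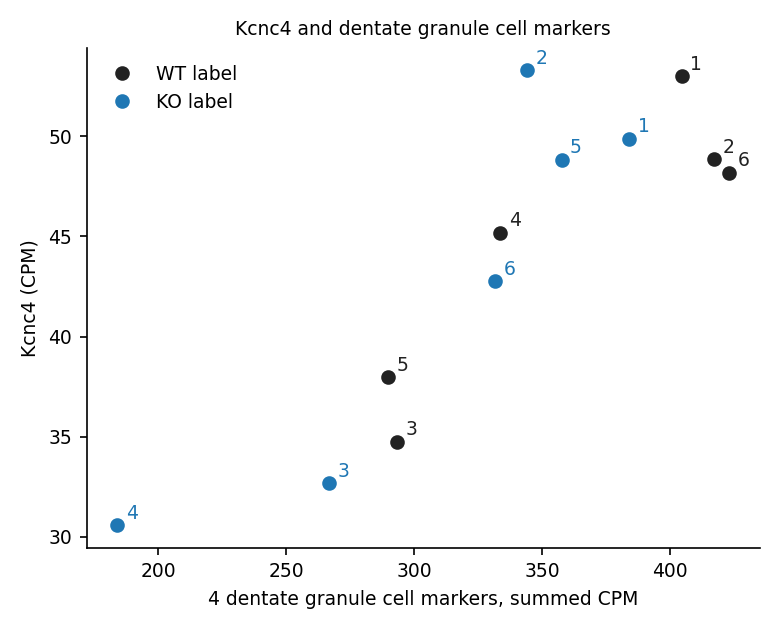
*Kcnc4* in CPM against the summed CPM of 4 dentate granule cell markers, each point a library numbered by replicate and coloured by label. The libraries at 30.6 to 38.0 CPM of *Kcnc4* are those with the lowest marker sums, 184 to 293 CPM.

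*Kcnd2* encodes Kv4.2, the main A-type subunit of pyramidal cell dendrites. It spans 21165503 to 21679805 on the plus strand of chromosome 6, which also carries *Gadd45a*. Under the WT label it had 187, 193 and 205 CPM in the lowest, median and highest library and under the KO label 165, 176 and 196 CPM. All KO-labelled libraries but replicate 1 were below the lowest WT-labelled library, while replicate 1 was inside the WT range. The means were 194 ± 7.16 and 177 ± 12.1 CPM (SD, n = 6 each) and the fitted change was -8.95% (95% interval -14.8% to -2.74%). Of the 9 genes it came nearest to the threshold, with a log2 fold change of -0.14 (standard error 0.04, 95% interval -0.23 to -0.04; unadjusted p = 0.00861, adjusted p = 0.135 from edgeR). Permuting the labels over the libraries gave a two-sided exact p of 0.0216 for the difference in mean log2 CPM, before any adjustment for the genes tested. In edgeR fits that each left out 1 library, adjusted p-values of *Kcnd2* ran from 0.0408 to 0.333, and all missed 1% FDR. The smallest of them belonged to the fit lacking *Gadd45a*-KO replicate 1. Dropping *Gadd45a*-KO replicates 2 and 3 together brought *Kcnd2* closer to no change, at -0.10 on the log2 scale (edgeR, adjusted p = 0.594).

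*Kcnd3* encodes Kv4.3, which interneurons and dentate granule cells use. *Kcnd3* spans 105255248 to 105476920 on the plus strand of chromosome 3. The lowest, median and highest library had 99.8, 108 and 112 CPM under the WT label and 90.6, 102 and 115 CPM under the KO label. In 3 KO-labelled libraries it was below all WT-labelled ones and in 2 above all of them. The log2 fold change was -0.06 (95% interval -0.20 to 0.08; adjusted p = 0.809 from edgeR). Without *Gadd45a*-KO replicates 2 and 3, which were 2 of the 3 highest KO-labelled libraries for *Kcnd3*, it was -0.13 (adjusted p = 0.582 from edgeR). With any 1 library left out it ran from -0.08 to -0.02, the end nearest 0 being without *Gadd45a*-KO replicate 6.

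The balance of *Kcnd2* and *Kcnd3* was nearly the same in all WT-labelled libraries and not in those labelled KO. The CPM of *Kcnd2* over that of *Kcnd3* was 1.85, 1.83, 1.87, 1.89, 1.76 and 1.79 in *Gadd45a*-WT replicates 1 to 6. In *Gadd45a*-KO replicates 1, 4 and 6 it was 2.17, 1.96 and 2.00, above every WT-labelled library. In *Gadd45a*-KO replicates 2, 3 and 5 it was 1.49, 1.49 and 1.46, below every WT-labelled library. The group means of 1.83 ± 0.0488 and 1.76 ± 0.316 (SD, n = 6 each) thus lay within the spread of the KO label, and no test was made of the spread itself. Within the KO label, *Kcnd3* was at 90.6, 92.8 and 91.0 CPM where *Kcnd2* was at 196, 182 and 182 CPM (replicates 1, 4 and 6), and at 115, 111 and 114 CPM where *Kcnd2* was at 171, 165 and 166 CPM (replicates 2, 3 and 5). The summed level of 4 CA1 pyramidal cell markers (*Wfs1*, *Fibcd1*, *Spink8* and *Pou3f1*) separated the same KO-labelled libraries, with 364, 447 and 332 CPM in replicates 1, 4 and 6 and 237, 228 and 207 CPM in replicates 2, 3 and 5, while WT-labelled libraries had 315 to 391 CPM. Under the WT label *Wfs1* and *Fibcd1* had means of 173 and 159 CPM, *Spink8* 24.0 CPM and *Pou3f1* at most 0.120 CPM. *Gadd45a*-KO replicates 2 and 3, low in this sum, were also those high in thalamic markers. Among WT-labelled libraries, sums of 315, 386 and 391 CPM in replicates 2, 5 and 4 went with ratios of 1.83, 1.76 and 1.89. Of these CA1 markers 3 were tested, and 0 passed 1% FDR, with a median log2 fold change of -0.25. Whether the share of CA1 tissue has a part in the balance was not tested.

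**Figure D4:**
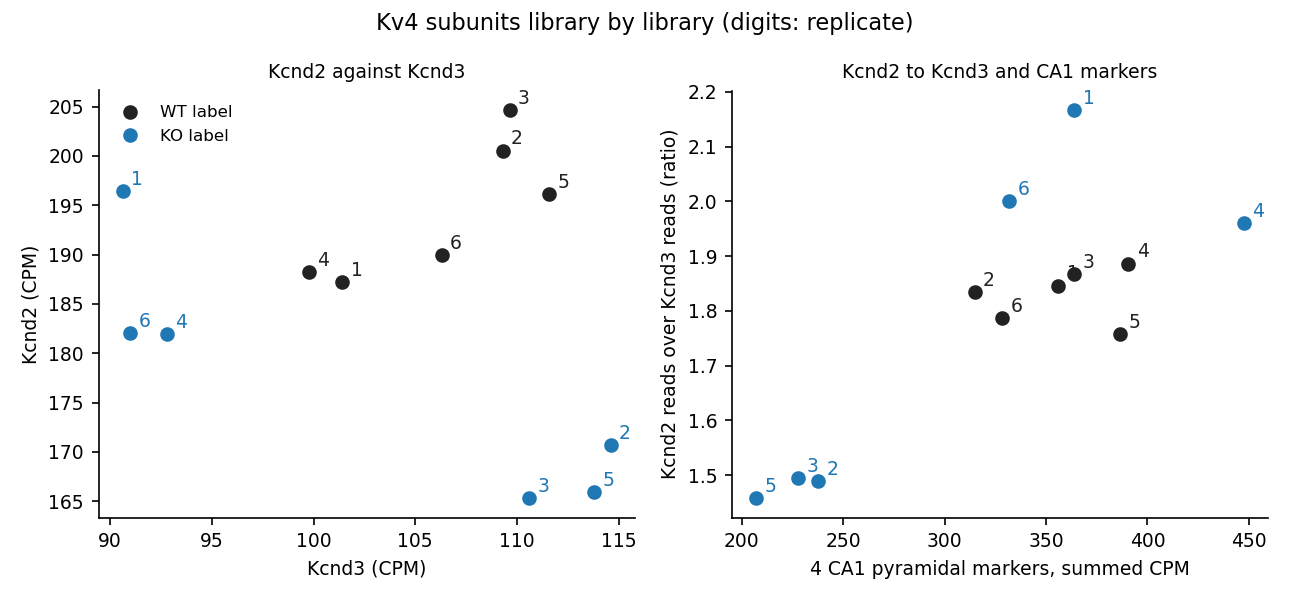
Left, *Kcnd2* against *Kcnd3* in CPM; right, the ratio of their CPM against the summed CPM of 4 CA1 pyramidal cell markers, each point a library numbered by replicate and coloured by label. WT-labelled ratios sit between 1.76 and 1.89, with KO replicates 1, 4 and 6 above and 2, 3 and 5 below them.

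Per kb of exon, *Kcnd2* made up 77.3% ± 0.472 of the *Kcnd2* and *Kcnd3* total under the WT label and 76.3% ± 3.22 under the KO label (SD, n = 6 each). The summed level of both was 48.8 ± 1.81 and 45.0 ± 1.37 CPM per kb, with KO-labelled libraries from 43.6 to 47.6 and WT-labelled ones from 46.9 to 51.2. Summed over the 3 Kv3 genes of the set, the level was 56.0 ± 2.74 CPM per kb under the WT label and 57.8 ± 5.68 under the KO label, of which *Kcnc1* held 39.2% and 39.5%.

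*Kcnip1* encodes KChIP1, which is known from inhibitory interneurons. Its position is 33529339 to 33893152 on the minus strand of chromosome 11. It had 12.5, 13.9 and 15.3 CPM in the lowest, median and highest library under the WT label and 12.3, 14.5 and 14.8 CPM under the KO label. The ranges nearly coincided, with a log2 fold change of 0.01 (95% interval -0.12 to 0.14; adjusted p = 0.967 from edgeR). Between 563 and 850 reads per library carried this gene, the fewest of the set.

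*Kcnip2* encodes KChIP2, a partner of Kv4 subunits in pyramidal cells and in heart muscle. *Kcnip2* spans 45866329 to 45890551 on the minus strand of chromosome 19. The lowest, median and highest library had 231, 257 and 267 CPM under the WT label and 229, 241 and 272 CPM under the KO label. Of the KO-labelled libraries 5 were below the WT mean, while replicate 1 was the highest of all 12. The log2 fold change was -0.05 (95% interval -0.15 to 0.05; adjusted p = 0.753 from edgeR).

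*Kcnip3* encodes KChIP3, also called DREAM or calsenilin, which besides binding Kv4 can repress transcription and interacts with presenilins. *Kcnip3* spans 127282234 to 127347830 on the minus strand of chromosome 2. It had 66.03, 76.1 and 79.1 CPM in the lowest, median and highest library under the WT label and 74.5, 77.7 and 81.0 CPM under the KO label. All 6 KO-labelled libraries were above the WT mean of 74.1 ± 5.35 CPM (SD, n = 6), but the ranges overlapped, and the log2 fold change was 0.06 (95% interval -0.03 to 0.16; adjusted p = 0.622 from edgeR).

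*Kcnip4* encodes KChIP4, of which a splice form slows the inactivation of Kv4. *Kcnip4* spans 48780743 to 49915940 on the minus strand of chromosome 5. It had 66.2, 68.8 and 70.2 CPM in the lowest, median and highest library under the WT label and 65.1, 68.9 and 73.9 CPM under the KO label. It was the steadiest gene of the set, with an SD of 0.06 within labels on the log2 scale. The log2 fold change was 0.01 with the narrowest interval of the 9, -0.07 to 0.09 (adjusted p = 0.936 from edgeR), and it was -0.02 without *Gadd45a*-KO replicates 2 and 3.

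**Figure D5:**
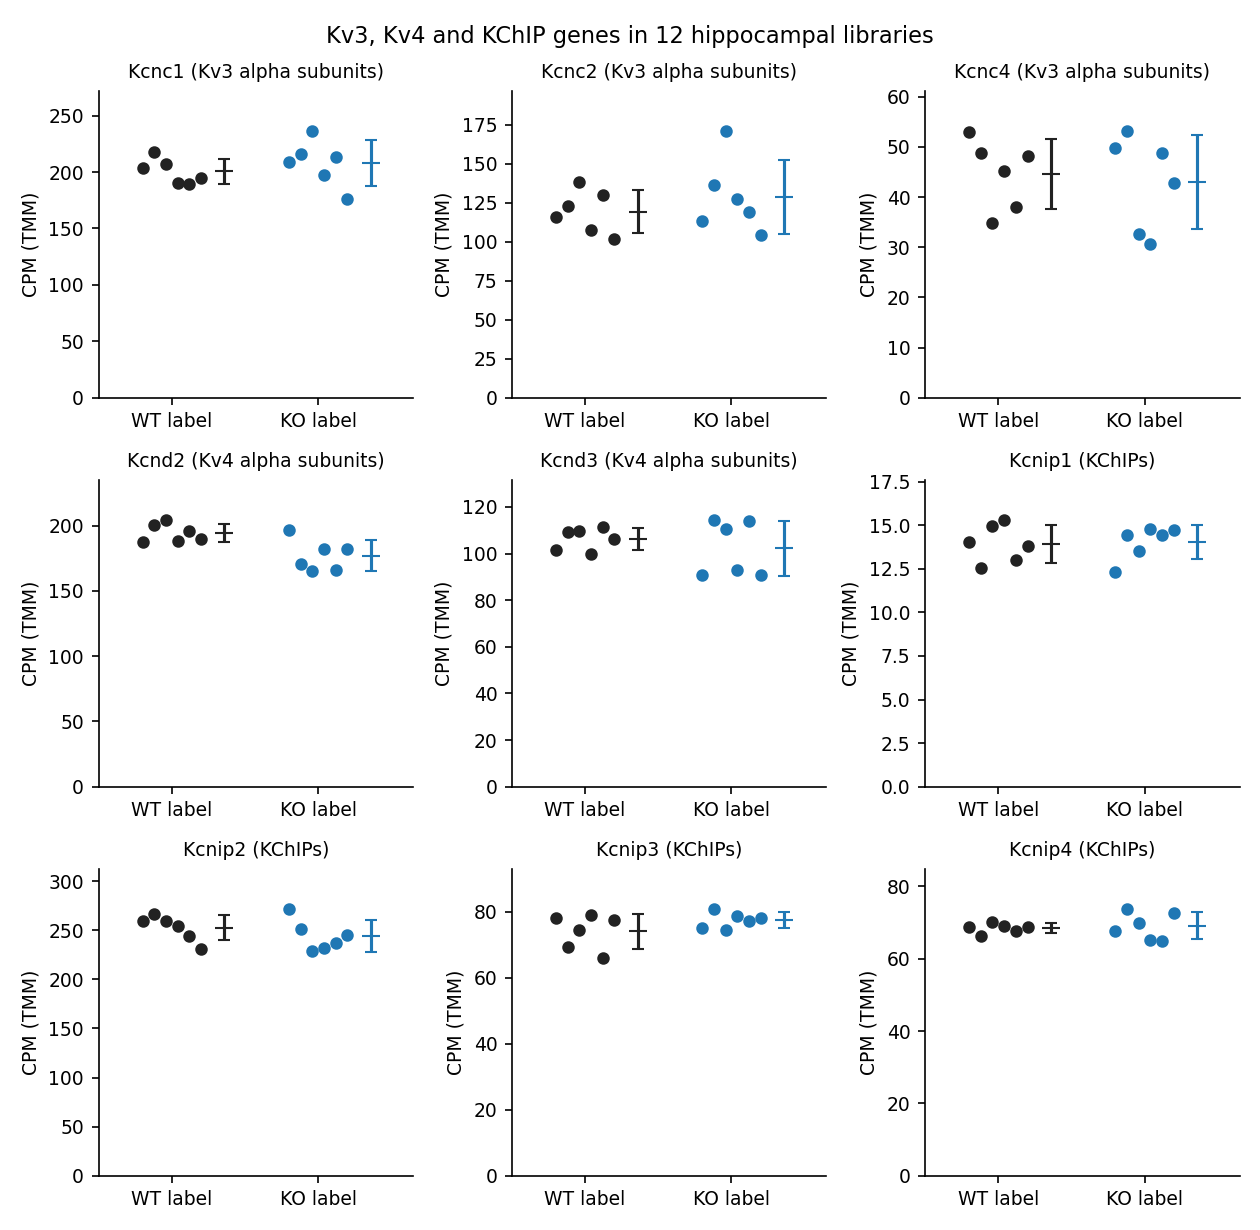
CPM of the 9 genes in each library (points, replicates 1 to 6 from left to right) with mean and SD (bars at the side), by label. Both labels overlap in every panel; *Kcnc4* is the most scattered, from 30.6 to 53.3 CPM, and *Kcnip4* the least, from 65.1 to 73.9 CPM.

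Within the KChIPs, *Kcnip2* held 59.7% ± 1.69 of the summed level per kb under the WT label and 58.3% ± 1.69 under the KO label (SD, n = 6 each). *Kcnip4* held 21.2% and 21.6%, *Kcnip3* 17.2% and 18.2%, and *Kcnip1* 1.85% and 1.89%. The KChIP total per kb was 2.49 ± 0.128 times that of *Kcnd2* and *Kcnd3* under the WT label and 2.67 ± 0.0708 times under the KO label, with ranges of 2.35 to 2.66 and 2.57 to 2.78 that overlapped.

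Since the study asked about 3′UTR length, annotated lengths were set beside the values. All 9 genes had a longest annotated 3′UTR above the median of 1065 nt over the tested genes that had one, and 4 exceeded the median of 2400 nt over genes lower at 1% FDR. The longest were 5042 nt for *Kcnc1*, 4793 nt for *Kcnd3*, 4212 nt for *Kcnc2* and 2463 nt for *Kcnd2*, and the shortest 1118 nt for *Kcnc4*. Counts per gene do not show reads beyond annotated ends, which were not analysed here. No other gene on the same strand shares exon bases with any of the 9 in the annotation used. On the opposite strand *1700095B22Rik* shares 165 exon bases with *Kcnd3*, and it had at most 82 reads in a library under strand-aware counting.

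The other genes of these complexes were read from the same fit. Of 45 genes in 5 lists 43 were tested, and 0 passed 1% FDR in either direction by edgeR, beside 2.65% of all tested genes. An unadjusted p under 0.05 from edgeR was found for 3 of the 43, beside 13.7% of tested genes. The median log2 fold change of the 43 was -0.02, against 0.00 over all tested genes. *Kcnd1*, which encodes a further Kv4 subunit, had a log2 fold change of -0.01 (95% interval -0.11 to 0.10; adjusted p = 0.967 from edgeR).

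Among 14 Kv4 complex partners, which include the dipeptidyl peptidase-like subunits *Dpp6* and *Dpp10*, 13 were tested. At 1% FDR 0 were called, beside 2.65% of all tested genes, and the median log2 fold change was 0.00. The lowest was *Akap5*, which anchors protein kinase A and calcineurin at the synapse, with 90.6 ± 8.51 CPM under the WT label and 76.5 ± 8.48 CPM under the KO label (SD, n = 6 each). Its log2 fold change was -0.25 (95% interval -0.41 to -0.08; adjusted p = 0.0960 from edgeR). The highest was *Kcne3*, a small accessory subunit, at 0.55 (adjusted p = 0.528 from edgeR), on 0.188 and 0.274 CPM. Of 13 kinases, phosphatases and an RNA-binding protein that act on Kv3 or Kv4 channels, 0 of 13 were called, from *Prkca* at -0.11 to the calcineurin subunit *Ppp3cb* at 0.03, with a median log2 fold change of -0.02.

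Among 7 partners and targets of *Kcnip3*, 0 passed 1% FDR, beside 2.65% of all tested genes, and the median was -0.02. *Creb1*, a transcription factor that binds cAMP-response elements, would have passed at 5% FDR, with 63.0 ± 3.59 CPM under the WT label and 55.9 ± 2.92 CPM under the KO label (log2 fold change -0.17, 95% interval -0.27 to -0.08, adjusted p = 0.0412 from edgeR). All 6 KO-labelled libraries were below all those labelled WT for this gene, which was named after its value was seen. *Fos*, an activity-induced gene, was lowest of the list at -0.35 (95% interval -0.67 to -0.03; adjusted p = 0.307 from edgeR), and *Slc8a3*, a sodium-calcium exchanger, highest at 0.11 (adjusted p = 0.713 from edgeR). Of 9 other neuronal calcium sensors 8 were tested and 0 called, with a median of -0.02, from *Guca1b* at -0.37 on 0.936 and 0.724 CPM to *Ncald* at 0.05.

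Markers of interneurons, cells that use *Kcnc1*, *Kcnc2* and *Kcnip1*, had a median log2 fold change of -0.05. Their sum over 8 genes was 644 to 708 CPM under the WT label and 612 to 723 CPM under the KO label, and 0 of 8 passed 1% FDR. Of the 8 log2 fold changes 7 were below 0, and only that of *Pvalb*, the marker of fast-spiking cells, was above it, at 0.02. *Pvalb* had 19.9 ± 1.85 CPM under the WT label and 20.3 ± 2.77 CPM under the KO label (SD, n = 6 each). The lowest was *Erbb4* at -0.18 (unadjusted p = 0.0152, adjusted p = 0.194 from edgeR), with 47.0 ± 3.26 and 41.7 ± 4.02 CPM in the same order.

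For each of the 9 genes, the 2 tested genes with the most similar pattern over the 12 libraries were found by the root mean square difference of standardized log2 CPM, where 0 is an identical pattern. For *Kcnd3* only the second of them is given. The closest were *M5C1000I18Rik* for *Kcnd2*, at 0.285, and *Ptk2b* for *Kcnip2*, at 0.287. Next came *Gm11744* and *Trpc6* for *Kcnc4*, at 0.308 and 0.329, and *Mtap7d2* and *Epb4.1l3* for *Kcnc2*, at 0.345 and 0.347. *Scn3b* was at 0.380 from *Kcnd2* and *Mlxipl* at 0.461 from *Kcnip2*. For *Kcnc1* they were *Ubxn10* at 0.372 and *4930579J09Rik* at 0.396, and for *Kcnd3* *Mdh1b* stood at 0.459. For the remaining KChIPs they were *Trappc4* at 0.446 and *Txn1* at 0.472 (*Kcnip1*), *Gm10785* at 0.404 and *Prph* at 0.504 (*Kcnip3*), and *Gm14308* at 0.409 and *Cnbp* at 0.428 (*Kcnip4*). *Gm10785*, *Gm14308*, *Prph* and *Mdh1b* had mean levels of only 0.201, 0.374, 0.429 and 0.730 CPM, so that few reads make up their patterns. All of these genes are the best of 16399 over libraries that share their tissue makeup, and they describe these libraries only.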

How the data were processed

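The authors sequenced poly(A) RNA with a stranded kit, aligned reads to NCBIM37/mm9 with TopHat 1.4.1 and deposited raw read counts per Ensembl gene made strand-aware with htseq-count (HTSeq 0.5.4p3), without normalization or pooling. Tools and build are from the submitters' processing notes. Rows naming no gene were left out, namely reads on no feature (11.5% to 13.9% of all reads and alignments tallied), ambiguous reads (0.552% to 0.610%) and non-unique alignments (11.5% to 12.9%). Symbols, lengths and coordinates came from GENCODE M1 of the same build, an earlier release than the authors used, and 37205 IDs matched. Each library's label gave its group.

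Genes passing edgeR's filter were compared with its quasi-likelihood test (edgeR 4.0.16, R 4.3.3, TMM, no covariates, 1% FDR as in the study). Log2 CPM used a prior count of 2. Standard errors were taken as the absolute fitted change divided by the root of the F statistic, with 95% intervals from its degrees of freedom. The fits were tested on simulated data first. Alternatives were DESeq2 1.42.0, RLE factors, other filters, 5% FDR, the replicate block, a length offset (splines with 5 degrees of freedom) and leaving out libraries. Relations with marker sums (log2) used 100000 permutations, or all pairings within a label; that with thalamic markers left out *Gadd45a*-KO replicates 2 and 3. They, and the fit without those libraries, were added after seeing the data. Named genes are the 9 members, the lowest and highest gene of each related list, those called, *Kcnd1*, markers, and the 2 most similar genes per member. Some genes the rule selects are not reported here. The members and lists were chosen with earlier results of these data known. The dentate and CA1 markers and *Creb1* were named after their values were seen. No batch is given, and p-values measure the spread between libraries of a label. With 1 library per mouse, differences between mice, dissections and library preparations cannot be told apart in that spread. Tests ran in Python 3.11.15 with scipy 1.17.1. With 6 libraries against 6, the smallest two-sided exact p is 0.00216.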

Additional observations from a re-analysis of the deposited data

Results flagged for a closer look

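Of 60 groups of 6 libraries examined, 2 held a library far from the others, where about 3 are expected by chance. *Ncald*, the neuronal calcium sensor with the highest fold change of its list, had 427 CPM in *Gadd45a*-KO replicate 4, while the other KO-labelled libraries lay between 567 and 605 CPM (gap over range 0.786). The summed level of 4 oligodendrocyte markers was 5713 CPM in *Gadd45a*-KO replicate 3, against 2377 to 2916 CPM in the other KO-labelled libraries (gap over range 0.839), and the same library had the highest *Kcnc1* and *Kcnc2* and the lowest *Kcnd2* and *Kcnip2* of all 12.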

How the results depend on the processing

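At 1% FDR 0 of the 9 genes passed under any alternative, and 168 of 180 alternative fold changes kept their direction. *Kcnd2* stayed between -0.16 and -0.10. The 12 reversed values were near 0 and not called. They were 0.0108, 0.0213 and 0.0346 for *Kcnc4* without *Gadd45a*-WT replicate 1 and *Gadd45a*-KO replicates 3 and 4 (range over single libraries left out -0.12 to 0.0346), and -0.0106 and -0.00047 for *Kcnip1* without *Gadd45a*-WT replicates 2 and 5 (range -0.0106 to 0.0541). With a length offset they were 0.0150 for *Kcnd3* and -0.0025 for *Kcnip4*, with the block added 0.00995 and -0.0037, and without *Gadd45a*-KO replicates 2 and 3, a choice made after seeing the data, -0.0114 for *Kcnc1*, -0.0399 for *Kcnc2* and -0.0168 for *Kcnip4*. The cause was not tested.

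Over all tested genes, 430 were lower and 4 higher under the KO label. There were 661 and 19 by DESeq2, 275 and 9 with a length offset, 726 and 20 at 5% FDR, and 199 lower without *Gadd45a*-KO replicates 2 and 3. Leaving out 1 library gave 239 to 467 lower and 3 to 4 higher, with 268, 239 and 261 lower without *Gadd45a*-WT replicates 3, 5 and 6 and 248, 276 and 248 without *Gadd45a*-KO replicates 1, 2 and 6. Same-numbered deviations correlated above 0.1 in 5 of 6 pairs (-0.08 to 0.26, mean 0.14, against -0.03 between other numbers), and 4 of 12 libraries correlated best with their own number. Since 1 pair fell short and the labels tie the numbers to nothing shared, the numbers were not taken as pairing the libraries. With the replicate block 509 were lower and 5 higher, and 10 were higher with the block and length offset. With the block, standard errors of log2 fold changes fell for *Kcnc1*, *Kcnc2*, *Kcnc4*, *Kcnd3*, *Kcnip2* and *Kcnip3* and rose for *Kcnd2*, *Kcnip1* and *Kcnip4*. The largest falls were from 0.107 to 0.0550 for *Kcnc2* and from 0.139 to 0.0943 for *Kcnc4*.

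Shares without dividing by length were 55.0% for *Kcnc1*, 11.9% for *Kcnc4*, 64.0% for *Kcnd2*, 35.98% for *Kcnd3*, 3.44% for *Kcnip1*, 61.0% for *Kcnip2* and 16.9% for *Kcnip4*. Per kb of the longest transcript, levels were 26.3 for *Kcnc1*, 14.5 for *Kcnd3*, 3.42 for *Kcnip1*, 79.8 for *Kcnip2*, 27.7 for *Kcnip3* and 33.7 CPM for *Kcnip4*, so that *Kcnip3* passed *Kcnc1* and *Kcnd3* came level with *Kcnc4*.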
